A study of Rattus norvegicus with 20 samples.

Results

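The genes described here set whether a neuron can make, store and clear GABA or glutamate. They are the 6 genes Gad1, Gad2, Slc32a1, Slc6a11, Slc17a6 and Slc17a8, taken by symbol from the 32402 genes listed in each expression table of the rat supraoptic nucleus (SON), and all 6 were found. The SON is a paired hypothalamic nucleus whose magnocellular neurons send vasopressin and oxytocin to the posterior pituitary. Poly(A) RNA was sequenced from SON tissue punches of male Wistar Han rats in 4 groups of 5, each library from a single rat. The groups were adult rats of 3 months and aged rats of 18 months, each either euhydrated (EH, with water) or dehydrated (DH, without it). The sample labels give 2 days of DH, and the study's methods give a longer time. A punch holds the magnocellular neurons together with glia, vessels, meninges and nearby neurons, so in these bulk samples fewer cells of a type and less RNA per cell cannot be told apart. No label gives a batch.

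GABA is made from glutamate by glutamic acid decarboxylase, whose isoforms GAD67 and GAD65 are encoded by Gad1 and Gad2. Slc32a1 encodes VGAT, which loads GABA and glycine into synaptic vesicles, and Slc6a11 encodes GAT3, a GABA uptake transporter found mainly on astrocytes. Glutamate is loaded into vesicles by VGLUT2, encoded by Slc17a6, the main vesicular glutamate transporter of the hypothalamus, and by VGLUT3, encoded by Slc17a8 and found in scattered neurons that often release another transmitter too. Magnocellular neurons receive dense GABA and glutamate input and are themselves known to express Slc17a6.

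The sequences upstream of the 3 GABA neuron genes are shown because these genes varied together from rat to rat. That of Slc17a6 is shown because its correlations with them, which were negative, did not pass the permutation test described below. RefSeq promoters of all 6 genes were matched by symbol on the rat assembly GRCr8, which is not the assembly used for counting, and the 250 bases before each gene start are given 5′ to 3′ on the gene's strand. Capitals mark exact matches on either strand. The motifs searched were TATAAA, which is bound by the basal transcription machinery near some gene starts, GGGCGG, known as the GC box, and TGACG, the core of the cAMP response element. The letters TGANTCA, known as the AP-1 site, and TAATTA, a core bound by homeodomain proteins, were also searched and had no match in any of the 6 windows, and no matches of different motifs overlapped.
Gad1, chr3:75777202-75777451, + strand: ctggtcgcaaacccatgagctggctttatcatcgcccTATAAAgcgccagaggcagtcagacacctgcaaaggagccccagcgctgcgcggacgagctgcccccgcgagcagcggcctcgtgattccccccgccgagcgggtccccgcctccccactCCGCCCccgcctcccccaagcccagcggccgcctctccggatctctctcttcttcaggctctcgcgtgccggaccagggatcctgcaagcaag
Gad2, chr17:89671468-89671717, + strand: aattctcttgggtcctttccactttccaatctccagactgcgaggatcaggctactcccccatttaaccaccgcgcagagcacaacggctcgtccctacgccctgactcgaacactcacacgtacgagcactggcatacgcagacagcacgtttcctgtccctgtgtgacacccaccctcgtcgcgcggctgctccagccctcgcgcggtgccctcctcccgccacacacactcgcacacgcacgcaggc
Slc32a1, chr3:167686995-167687244, + strand: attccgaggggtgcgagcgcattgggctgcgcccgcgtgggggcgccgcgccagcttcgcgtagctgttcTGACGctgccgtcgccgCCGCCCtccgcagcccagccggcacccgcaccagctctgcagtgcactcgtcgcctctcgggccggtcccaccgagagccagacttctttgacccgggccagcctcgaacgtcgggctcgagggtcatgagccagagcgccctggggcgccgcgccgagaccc
Slc17a6, chr1:110348197-110348446, + strand: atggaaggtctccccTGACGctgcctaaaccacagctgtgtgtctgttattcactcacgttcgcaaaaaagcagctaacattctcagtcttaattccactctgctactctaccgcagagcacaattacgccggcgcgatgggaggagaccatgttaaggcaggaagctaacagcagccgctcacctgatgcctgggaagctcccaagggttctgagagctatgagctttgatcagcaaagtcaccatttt

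Gad1 had 1 match to TATAAA, present in 12.9% of 33469 rat promoter windows of this length, and 1 GC box, present in 30.5%. The TATAAA match lay toward the end of the window that is farthest from the annotated gene start. Slc32a1 had 1 GC box and 1 TGACG match, the latter present in 18.2% of windows. Gad2, which encodes the second decarboxylase, held none of the 5 motifs. Slc17a6 shared 1 TGACG match with Slc32a1. No motif of those searched was common to the windows of Gad1, Gad2 and Slc32a1, which says nothing of sites outside them. What these 3 windows shared was base composition, with a GC content of 68.4% in Gad1, 62% in Gad2 and 73.6% in Slc32a1, against 50.8% in Slc17a6 and a median of 51.2% over all windows. The Slc6a11 window, not shown, had a GC content of 73.6% with 4 GC boxes, and the Slc17a8 window a GC content of 53.2% with none of the motifs.

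Values are normalized counts, which are read counts divided by a size factor for each library. Values of single rats are given in the order of their replicate numbers, which are 1, 2, 4, 5 and 6 in adult EH and aged EH, 1 to 5 in adult DH and 1, 2, 3, 5 and 6 in aged DH. They come in 3 tables scaled separately, so the same EH rat has slightly different values in 2 of them. A log2 fold change (LFC) is a difference in mean log2(normalized count + 1), and limma's p-values were adjusted by Benjamini-Hochberg over all genes tested, with a threshold of 0.05. Normalized totals ran from 25931931 to 28689164 over the libraries and tables, and the adult libraries held 24268398 to 28491926 reads. The defining hormone genes of the SON were abundant in every rat, with at least 113730 normalized counts of Avp and 71073 of Oxt. All 6 transmitter genes passed the filter on low values (a mean of at least 10) in every comparison. Levels were not compared between genes, because no transcript lengths of the counting annotation were at hand.

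**Figure D1:**
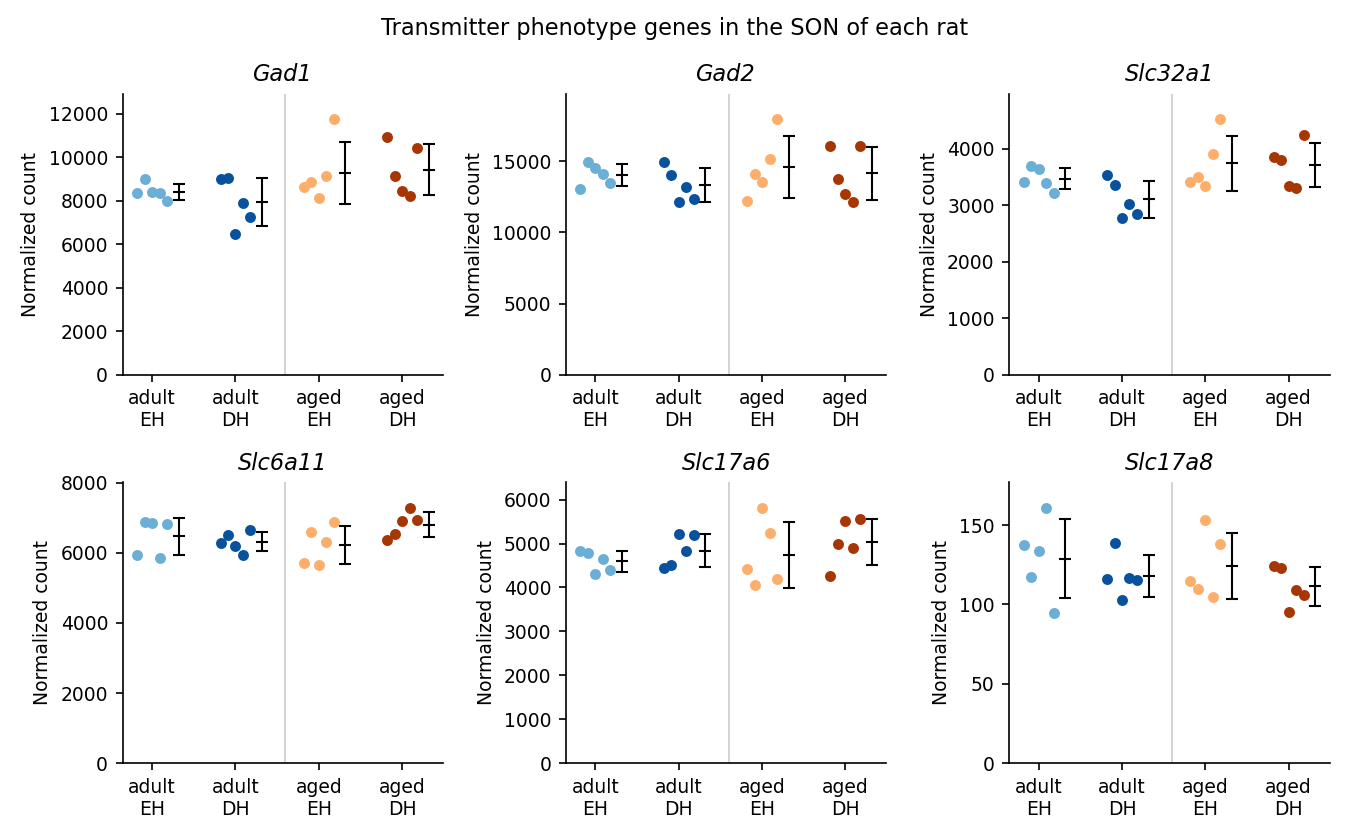
Normalized counts (linear axis from 0) of the 6 genes in each rat. Points are rats, 5 in each group, bars are the mean and SD, and the grey line parts adult rats from aged rats, which come from tables scaled separately. EH and DH rats overlapped in every panel, and the Slc17a8 panel has far fewer counts than the other panels.

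Ageing was addressed by setting aged EH against adult EH rats. None of the GABA or glutamate genes differed by the test between the ages. The 2 genes with a positive LFC were Gad1 at 0.075 and Slc32a1 at 0.042, and Slc6a11 had the lowest LFC, at -0.11. Limma called 0 of the 6 genes, against 5.99% of the 15369 genes tested. An unadjusted p under 0.05 was found for 0 of the 6 and for 20.3% of genes tested. In all 6 genes the aged and adult rats overlapped, whereas the groups did not overlap in 6.38% of genes tested.

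Gad1 (ENSRNOG00000000007) had 8697, 9370, 8774, 8725 and 8333 normalized counts in adult EH rats and 8630, 8874, 8117, 9161 and 11836 in aged EH rats. Adult rats lay close together, and in aged rats the highest value belonged to replicate 6 while 3 of the others lay within the adult range and 1 lay below it. The means were 8780 ± 374 and 9324 ± 1456 (SD, n = 5), and the LFC was 0.075 (95% CI -0.092 to 0.24; limma adjusted p = 0.663). Gad2 (ENSRNOG00000018200) had 13618, 15559, 15187, 14683 and 14043 in adult EH and 12188, 14093, 13552, 15136 and 18075 in aged EH. The aged rats held both the lowest and the highest value, the latter again in replicate 6. The LFC of Gad2 was -0.012 (95% CI -0.18 to 0.16; limma adjusted p = 0.959).

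For the vesicular GABA transporter Slc32a1 (ENSRNOG00000015393), adult EH rats had 3550, 3838, 3810, 3542 and 3358 normalized counts and aged EH rats 3423, 3502, 3340, 3917 and 4554. Replicate 6 was once more the highest aged rat. The LFC was 0.042 (95% CI -0.11 to 0.20; limma adjusted p = 0.816). Without that rat the LFCs of Gad1 and Slc32a1 turned slightly negative, at -0.014 and -0.031, and the LFC of Gad2 was -0.092. None of the 3 was called in any fit that left out 1 rat.

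Slc6a11 (ENSRNOG00000005697), the astrocytic GABA transporter gene, ranged from 6091 to 7167 normalized counts in adult EH and from 5664 to 6930 in aged EH. Of the 6 genes it had the smallest p, with an LFC of -0.11 (95% CI -0.25 to 0.027; limma adjusted p = 0.370). Slc17a6 (ENSRNOG00000016147) had 5040, 4982, 4499, 4838 and 4594 in adult EH and 4424, 4056, 5822, 5240 and 4230 in aged EH. Here the aged rats lay both above and below the adult range, and replicate 6, the highest rat for the GABA genes, was among the lowest. The LFC of Slc17a6 was -0.023 (95% CI -0.20 to 0.15; limma adjusted p = 0.918). Slc17a8 (ENSRNOG00000007581) ranged from 98.6 to 168 in adult EH and from 104 to 153 in aged EH, and its LFC of -0.10 had the widest interval, from -0.42 to 0.22 (limma adjusted p = 0.771).

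The spread between rats was wider in aged EH for 4 of these genes, a comparison that was not tested. The coefficient of variation was 15.6% against 4.3% in adult EH for Gad1, 15.1% against 5.5% for Gad2, 13.4% against 5.6% for Slc32a1 and 15.8% against 5.0% for Slc17a6. Without aged EH replicate 6 the aged values were 5.1% for Gad1, 8.9% for Gad2, 7.2% for Slc32a1 and 16.3% for Slc17a6. That rat was chosen after its values were seen. Leaving out 1 adult EH rat also lowered the adult values, to 2.3% for Gad1 (replicate 2), 4.4% for Gad2 (replicate 1) and 4.4% for Slc32a1 (replicate 6). The share of the wider spread that came from aged EH replicate 6 can therefore not be read from these values. In Slc6a11 the values over all rats were 8.9% and 8.2%, and in Slc17a8 they were 16.8% and 19.2%. Markers of other cells moved with age in the same libraries. Limma called 4 of 5 meningeal genes lower in aged rats, with summed normalized counts of 6862 to 12538 against 18673 to 23327. It also called 4 of 7 oligodendrocyte and 4 of 8 astrocyte genes lower, 3 of 6 microglial and 2 of 7 magnocellular genes higher, and 0 of 4 genes of neurons in general. Of all genes tested, 2.69% were called higher and 3.3% lower with ageing. None of the genes on these lists was at 0, and their part in the values of the 6 genes was not tested.

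**Figure D2:**
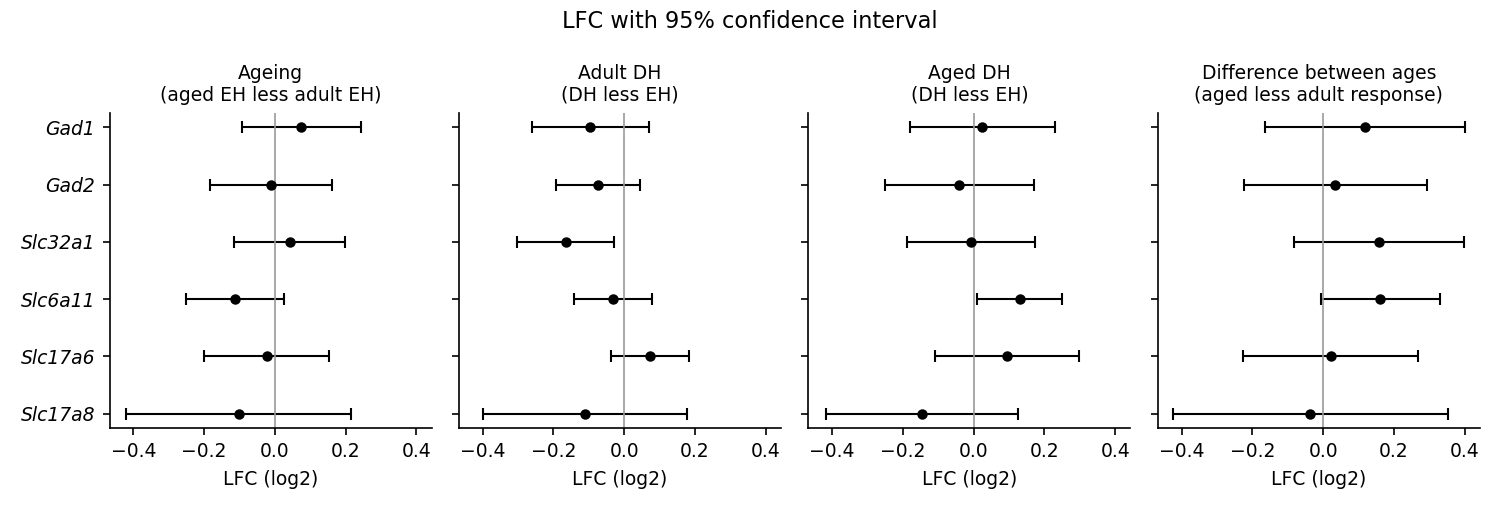
LFC (log2 scale) of the 6 genes with its 95% confidence interval from limma in the 3 comparisons of 5 against 5 rats, and the difference between the responses to DH in aged and adult rats (20 rats). Only the intervals of Slc32a1 in adult DH and Slc6a11 in aged DH leave out 0, and neither gene passed the adjusted threshold.

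Dehydration in adult rats was addressed by setting adult DH against adult EH. The GABA genes and the glutamate gene Slc17a8 had lower mean levels in DH and Slc17a6 a higher one, by amounts that did not pass the adjusted test. Limma called 0 of the 6 genes, against 12.7% of the 15280 genes tested. One gene, Slc32a1, had an unadjusted p under 0.05, as did 26.9% of genes tested. The count models edgeR and DESeq2, run on reads recovered from these values, also called 0 of the 6, each with Slc32a1 alone at an unadjusted p under 0.05. EH and DH rats overlapped in all 6 genes and did not overlap in 10.9% of genes tested. Markers of other cells moved with DH in the same libraries. Limma called 5 of 7 magnocellular genes higher, against 7.67% of all genes, with summed normalized counts of 417257 to 524684 in DH and 303078 to 387768 in EH. It called 2 of 7 oligodendrocyte genes lower, against 4.99% of all genes, with sums of 244739 to 312621 in DH and 256540 to 375216 in EH. The part of these markers in the values of the 6 genes was not tested.

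Slc32a1 had 3407, 3688, 3649, 3398 and 3221 normalized counts in adult EH rats and 3532, 3366, 2779, 3013 and 2837 in adult DH rats. Of the DH rats, 3 lay below every EH rat and 2 lay within the EH range. The means were 3472 ± 194 in EH and 3105 ± 331 in DH (SD, n = 5). The LFC was -0.17 (SE 0.064; 95% CI -0.30 to -0.029; limma adjusted p = 0.109), a mean change of -10.9%. The adjusted p ranged from 0.0322 to 0.235 over 16 alternatives, and the sole alternative that called Slc32a1 left out DH replicate 1, the DH rat with the most Slc32a1.

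Gad1 showed the same DH rats at the low end, with 9008, 9057, 6488, 7896 and 7261 normalized counts in DH against 8345, 9004, 8403, 8369 and 7994 in EH. Its LFC was -0.095 (95% CI -0.26 to 0.070; limma adjusted p = 0.471). Gad2 had 14973, 13999, 12154, 13177 and 12372 in DH and ranged from 13067 to 14951 in EH, an LFC of -0.075 (95% CI -0.19 to 0.044; limma adjusted p = 0.420). DH replicates 3 and 5 were thus the lowest DH rats in each of Gad1, Gad2 and Slc32a1.

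Slc17a6 ran the other way in those rats. It had 4436, 4510, 5229, 4822 and 5201 normalized counts in adult DH, where replicates 3 and 5 were the highest, and 4308 to 4837 in adult EH. Its LFC was 0.073 (95% CI -0.037 to 0.18; limma adjusted p = 0.395). Slc6a11 ranged from 5937 to 6646 in DH and from 5843 to 6887 in EH, with an LFC of -0.032 (95% CI -0.14 to 0.079; limma adjusted p = 0.744). The interval for Slc6a11 limits a change with DH in adult rats to between -9.4% and 5.6%.

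Slc17a8 ranged from 103 to 139 normalized counts in adult DH and from 94.6 to 161 in adult EH, with an LFC of -0.11 (95% CI -0.40 to 0.18; limma adjusted p = 0.657). It rested on 98 to 159 reads in an EH rat, for which counting error alone gives a coefficient of variation of 8.7% against an observed 19.2%. Gad2, with 13579 to 15700 reads in EH rats, had a counting error of 0.83% against an observed 5.5%. The interval of Slc17a8 reached from -24.2% to 13.2%, which limits a change with DH less closely than the interval of Slc6a11 does.

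Dehydration in aged rats was addressed by setting aged DH against aged EH. The GABA neuron genes and both glutamate transporter genes had LFCs between -0.15 and 0.095, and Slc6a11 had a higher mean in DH that did not pass the adjusted test. Limma called 0 of the 6 genes, against 7.29% of the 15346 genes tested. One gene, Slc6a11, had an unadjusted p under 0.05, as did 21.4% of genes tested. No count model was run on this table. Rats of the 2 groups overlapped in all 6 genes and did not overlap in 7.05% of genes tested. Limma called 2 of 7 magnocellular genes higher, against 4.05% of all genes. The summed normalized counts of the magnocellular genes were 440649 to 659856 in DH and 373202 to 496185 in EH, and their part in the values of the 6 genes was not tested.

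Slc6a11 had 5695, 6590, 5663, 6316 and 6886 normalized counts in aged EH rats and 6358, 6529, 6905, 7288 and 6942 in aged DH rats. Of the DH rats, 3 were above every EH rat. The means were 6230 ± 542 in EH and 6804 ± 367 in DH (SD, n = 5), with an LFC of 0.13 (SE 0.056; 95% CI 0.0098 to 0.25; limma adjusted p = 0.192). The adjusted p ranged from 0.0874 to 0.374 over 14 alternatives. Of 8 astrocyte markers, 1 was called lower (Sox9) and none higher in aged DH, against 3.25% lower and 4.05% higher of all genes. The summed normalized counts of these markers were 82687 to 98393 in DH and 89779 to 112054 in EH, and their part in the Slc6a11 values was not tested.

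Gad1 had 8617, 8861, 8115, 9153 and 11761 normalized counts in aged EH and 10914, 9143, 8464, 8232 and 10422 in aged DH. The DH rats all lay within the EH range, and the LFC was 0.024 (95% CI -0.18 to 0.23; limma adjusted p = 0.925). Gad2 ranged from 12169 to 17960 in EH and from 12126 to 16081 in DH, with an LFC of -0.040 (95% CI -0.25 to 0.17; limma adjusted p = 0.869). Slc32a1, the gene nearest to the threshold in adult DH, had 3847, 3805, 3339, 3306 and 4248 in aged DH and ranged from 3340 to 4526 in aged EH. Its LFC was -0.0086 (95% CI -0.19 to 0.17; limma adjusted p = 0.971).

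Slc17a6 had 4257, 4990, 5517, 4889 and 5549 normalized counts in aged DH and ranged from 4050 to 5820 in aged EH, an LFC of 0.095 (95% CI -0.11 to 0.30; limma adjusted p = 0.637). Slc17a8 ranged from 95 to 124 in DH and from 104 to 153 in EH, an LFC of -0.15 (95% CI -0.42 to 0.12; limma adjusted p = 0.561).

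Whether the response to DH differed between the ages was tested in all 20 rats as the aged response less the adult response. None of the 6 genes differed by that test, and limma called 0 of them among 15326 genes tested, of which 0% were called and 1522 had an unadjusted p under 0.05. Slc6a11 had the smallest p, with a difference in LFC of 0.16 (95% CI -0.0068 to 0.33; limma adjusted p = 0.524). For Slc32a1 the difference was 0.16 (95% CI -0.083 to 0.40; limma adjusted p = 0.698). The lower mean Slc32a1 in adult DH and its near equal means in aged rats are therefore not shown to be different responses. The differences of Gad1, Gad2, Slc17a6 and Slc17a8 were 0.12, 0.035, 0.022 and -0.037 on the log2 scale, with intervals that all held 0 and lay between -0.43 and 0.40.

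The balance of GABA and glutamate genes was described within each library, where the size factor cancels. The ratio of Slc32a1 to Slc17a6 was 0.704, 0.770, 0.847, 0.732 and 0.731 in adult EH rats and 0.796, 0.746, 0.531, 0.625 and 0.545 in adult DH rats. DH replicates 3, 4 and 5 were below every EH rat. In aged EH the ratio was 0.774, 0.864, 0.574, 0.748 and 1.08, and in aged DH it was 0.904, 0.762, 0.605, 0.676 and 0.765. The aged groups overlapped, and aged EH held both the lowest and the highest aged rat.

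The ratio of Gad1 plus Gad2 to Slc17a6 was 4.89 ± 0.32 in adult EH, 4.45 ± 0.81 in adult DH, 5.16 ± 1.27 in aged EH and 4.74 ± 0.96 in aged DH (SD, n = 5). Its range was 4.43 to 5.33, 3.56 to 5.41, 3.72 to 7.07 and 3.84 to 6.33 in the same order. All groups overlapped, and the adult EH rats had the narrowest range. These ratios compare rats and not transcripts, since counts were not divided by gene length, and they were given no test.

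**Figure D3:**
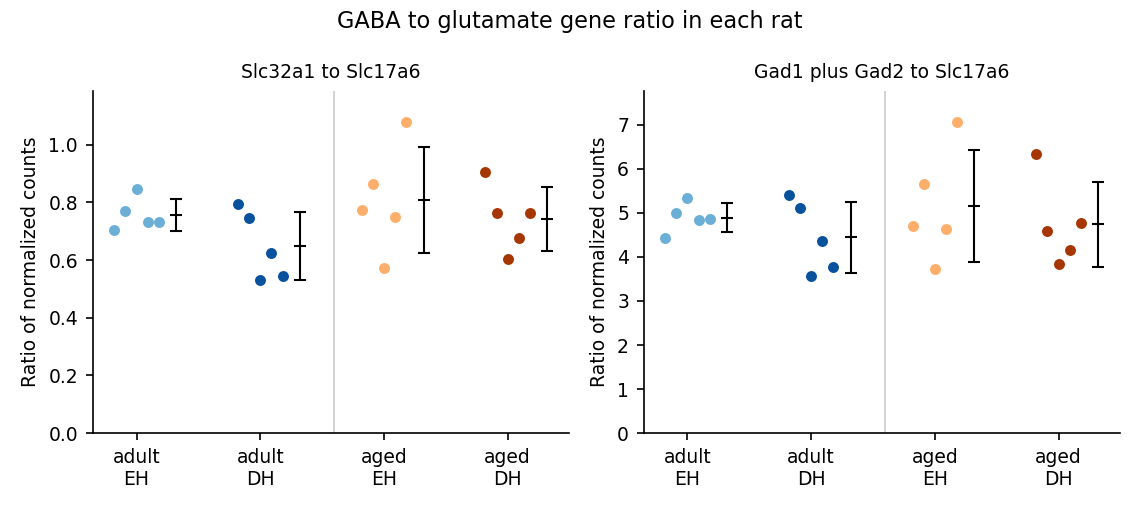
Ratio of normalized counts (linear axis from 0) of Slc32a1 to Slc17a6, and of Gad1 plus Gad2 to Slc17a6, in each rat. Points are rats, 5 in each group, and bars are the mean and SD. The adult EH rats lie closest together, from 0.704 to 0.847 in the first panel and from 4.43 to 5.33 in the second.

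The 3 GABA neuron genes varied together from rat to rat within the groups. Each rat's log2(normalized count + 1) less the mean of its group was correlated over the 20 rats, which removes the effect of age and DH on the mean. Pearson's r was 0.899 between Gad1 and Gad2, 0.916 between Gad1 and Slc32a1 and 0.918 between Gad2 and Slc32a1. Spearman's rho for these pairs was 0.919, 0.920 and 0.911. Values were permuted between rats of the same group 100000 times, and of 15 pairs among the 6 genes these were the only 3 with an adjusted p under 0.05 by either coefficient. Their unadjusted permutation p was 3e-05, 1e-05 and 1e-05 by both, and the last value is the smallest that 100000 permutations can give. The adjusted permutation p was 0.00015, 7.5e-05 and 7.5e-05.

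These relations did not rest on 1 age or on the extreme rats. Within the 10 adult rats r was 0.870, 0.920 and 0.942 in the same order, and within the 10 aged rats it was 0.932, 0.915 and 0.923. Without the 2 rats farthest from the median of the gene named first, r was 0.880, 0.888 and 0.907. The values of a rat share a single punch and library, including its depth and cell content.

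Slc17a6 deviated against the GABA genes, but not beyond what the permutations allowed. Between Gad1 and Slc17a6, r was -0.510 and rho -0.480 (permutation p = 0.0581 and 0.0666, adjusted p = 0.218 and 0.242). In adult rats r was -0.688 and in aged rats -0.458, and it was -0.415 without the 2 farthest rats. For Gad2 and Slc32a1 with Slc17a6, r was -0.324 and -0.323 over the 20 rats. It was -0.732 and -0.698 in adult rats and -0.219 and -0.197 in aged rats. The ages were not compared by a test. Slc6a11 had an r of 0.209 to 0.281 with the 3 GABA neuron genes, which was -0.038 to 0.074 without the 2 farthest rats, and Slc17a8 had an r of 0.257 to 0.328 with them.

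**Figure D4:**
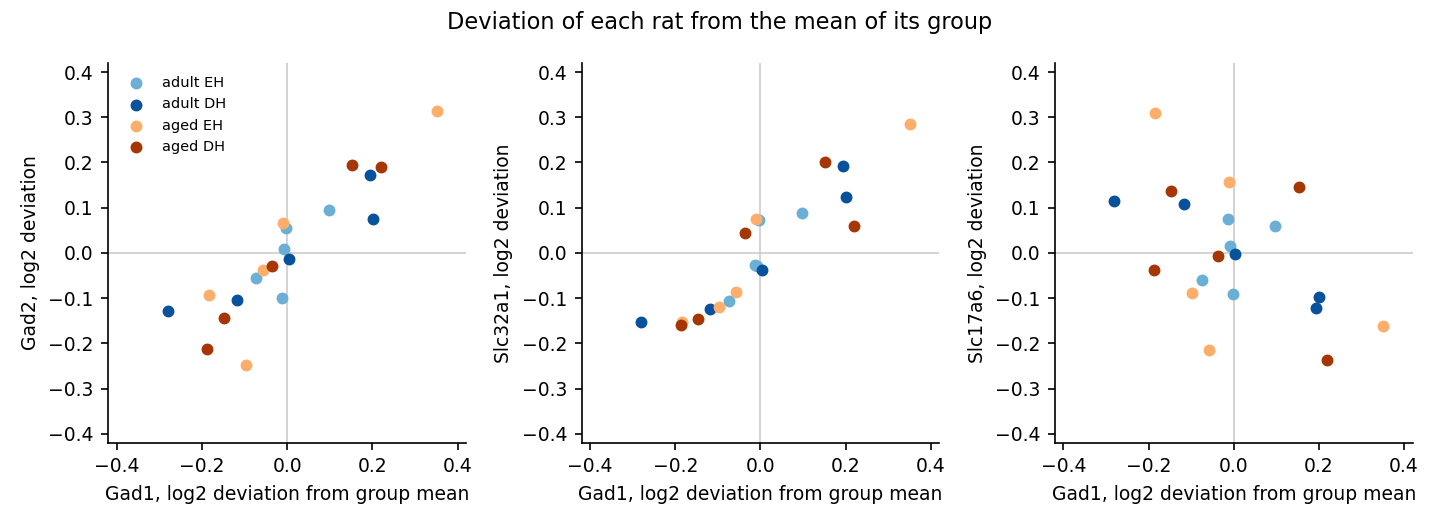
Deviation of each rat from the mean of its group, in log2 units, for Gad1 on the horizontal axis and Gad2, Slc32a1 or Slc17a6 on the vertical axis. Each point is 1 of 20 rats, coloured by group. Gad2 and Slc32a1 follow Gad1 (r of 0.899 and 0.916), whereas Slc17a6 tends the other way (r of -0.510).

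Among 12676 genes with a symbol and a mean of at least 50, the 3 whose deviations were most like each gene's were named by r over the same 20 rats, without a test because they were picked as the highest. For Gad1 they were Lhx6, a transcription factor of GABAergic interneurons, at 0.930, Slc32a1 at 0.916 and Sphkap at 0.906. For Gad2 they were the neurexin gene Nrxn3 at 0.960, Slc32a1 at 0.918 and Gad1 at 0.899. For Slc32a1 they were Gad2 at 0.918, Gad1 at 0.916 and Lhx6 at 0.881. GABA genes thus lay among the nearest genes of each other in this search.

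The nearest genes of Slc17a6 were Sez6l2 at 0.919, Rhof at 0.893 and Nrn1, which encodes neuritin, at 0.847. Those of Slc6a11 were Gulp1 at 0.894, Dync2h1 at 0.837 and Abat, which encodes the GABA transaminase that breaks GABA down, at 0.834. Slc17a8, with the fewest counts, had its nearest genes Sae1, Scyl3 and Rtn2 at 0.765, 0.754 and 0.749.

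The deviations were also compared with those of 85 listed genes of transmitter handling and of cell types, in 510 pairs with the 6 genes. The adjusted permutation p of Pearson's r was under 0.05 in 35 pairs, 23 positive and 12 negative. The pairs counted as passing in what follows are those by Pearson's r. Some did not pass by Spearman's rho, such as Slc32a1 with Dlx1 (adjusted permutation p = 0.108) and Slc17a6 with the magnocellular gene Scg2 (adjusted permutation p = 0.0504). Others passed by rho alone, such as Gad2 with Dlx5 (adjusted permutation p = 0.0433). Of 14 genes of GABAergic neurons, r was positive for 11 with Gad1, 11 with Gad2 and 10 with Slc32a1, with medians of 0.422, 0.508 and 0.518, and the adjusted p was under 0.05 for 2, 4 and 5 of them, all positive. The gene of this list that passed with all 3 was Lhx6, with r of 0.930, 0.840 and 0.881. From other lists, they shared the dopamine receptor gene Drd2 (r of 0.805, 0.772 and 0.708) and the synaptotagmin gene Syt1 (r of 0.847, 0.895 and 0.843). Each was the sole gene of its list to pass, of 6 striatal genes and of 4 genes of neurons in general, and the median r of the latter list was -0.164, 0.032 and -0.036.

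Some magnocellular genes deviated the other way from the GABA neuron genes. Of 7 magnocellular genes, r was negative for 7 with Gad1, 6 with Gad2 and 7 with Slc32a1. The adjusted permutation p of r was under 0.05 for 3, 1 and 3 of them. Nucb2, which passed with Gad1 and Slc32a1 by r, did not pass by rho (adjusted permutation p = 0.0907 and 0.0706). With Avp, which encodes vasopressin, r was -0.673 for Gad1, -0.743 for Gad2 and -0.666 for Slc32a1 (adjusted permutation p = 0.0177, 0.0177 and 0.0442), and rho was -0.629, -0.711 and -0.559 (adjusted permutation p = 0.0685, 0.0440 and 0.161). Without the 2 rats farthest from the median of the GABA gene, r was -0.586, -0.630 and -0.550. In adult rats r with Avp was -0.491, -0.687 and -0.541, and in aged rats -0.781, -0.779 and -0.734.

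Slc17a6 deviated against the meningeal genes, with a negative r for 5 of 5, from -0.792 to -0.674, and an adjusted permutation p under 0.05 for 4. Of these, Igf2 did not pass by rho (adjusted permutation p = 0.0907). With Dcn, which encodes the matrix proteoglycan decorin, r was -0.784 and rho -0.726 (adjusted permutation p = 0.0179 and 0.0433). It was -0.748 in adult rats, -0.801 in aged rats and -0.753 without the 2 farthest rats. With Slc17a6 the magnocellular genes had a positive r in 7 of 7, from 0.099 to 0.639, of which 1 passed. Of 5 genes of cortical glutamatergic neurons, r with Slc17a6 was positive for 2 and negative for 3. Tbr1 alone passed, with an r of 0.827 (adjusted permutation p = 0.0108). Of 6 genes of GABA supply and removal, r was negative for 6 and only Slc6a12 passed, at -0.792 (adjusted permutation p = 0.0177). Between meningeal genes and the GABA neuron genes r ran from -0.083 to 0.246, and 0 of 5 passed with any of the 3. Slc6a11 passed with 3 listed genes, Abat, Aldh5a1 and Slc1a3 (r of 0.834, 0.711 and 0.734), and Slc17a8 with 0. Of those 3, Abat alone passed by rho (adjusted permutation p = 0.0440). The part of punch content in the relations of the 6 genes with listed genes was not tested.

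Among the genes that supply and remove GABA and glutamate, some rose or fell with ageing and with DH at either age. No test set these lists against the 6 genes or against all genes. With ageing, limma called 0 of 6 genes of GABA supply and removal, of which 1 had an unadjusted p under 0.05. It called 0 of 11 genes of glutamate supply and removal higher and 2 lower, against 2.69% and 3.3% of all genes. The median LFC was -0.096 for the first list and -0.023 for the second, and it was 3.31e-04 over all genes tested.

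Glud1, which encodes glutamate dehydrogenase, fell from 16510 ± 1105 in adult EH to 14670 ± 339 normalized counts in aged EH (SD, n = 5; LFC of -0.17, limma adjusted p = 0.0326), a call lost in 7 of the 10 fits that left out 1 rat. Slc38a3, a glutamine transporter gene of astrocytes, fell from 2429 ± 101 to 2041 ± 118 without overlap (LFC of -0.25, limma adjusted p = 0.00543). Of the 2 glycine genes, Slc6a9, which encodes the glycine transporter GlyT1, fell from 6097 ± 204 to 5458 ± 246 (LFC of -0.16, limma adjusted p = 0.0205), a call lost in 3 such fits. Of 13 tested genes of GABAergic neurons, 0 were called by limma and 0 had an unadjusted p under 0.05. Npy, also listed, was at 0 or near it in every rat and was not tested.

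In adult DH, limma called 2 of 6 GABA supply and removal genes higher and 0 lower, against 7.67% and 4.99% of all genes. Both encode transporters that take up GABA among other substrates and are known from the meninges and blood vessels. Slc6a12 rose from 55.5 ± 12.0 in EH to 88.4 ± 13.2 normalized counts in DH (SD, n = 5; LFC of 0.67, limma adjusted p = 0.0154), and Slc6a13 from 1643 ± 287 to 2158 ± 285 (LFC of 0.40, limma adjusted p = 0.0331). Groups overlapped in both genes, and Slc6a13 was no longer called in 7 of the 10 fits that left out 1 rat. Of 5 meningeal markers, 4 had a positive LFC in adult DH and 0 were called, with summed normalized counts of 18468 to 22672 in DH and 17912 to 22338 in EH, and their part in these values was not tested.

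Of the 11 glutamate supply and removal genes, 1 was called higher and 1 lower in adult DH, against 7.67% and 4.99% of all genes. Glul, which encodes the astrocytic glutamine synthetase that turns glutamate into glutamine, had 23352, 24188, 23199, 25647 and 22945 normalized counts in EH and 32317, 33414, 28240, 30648 and 27825 in DH. Every DH rat was above every EH rat (LFC of 0.35, limma adjusted p = 5.56e-04). Glud1 fell from 15840 ± 1063 to 13950 ± 454 (SD, n = 5; LFC of -0.18, limma adjusted p = 0.0134). Of 13 genes of GABAergic neurons, Calb2, which encodes calretinin, was called higher (LFC of 0.23, limma adjusted p = 0.0347) and the homeobox gene Meis2 lower (LFC of -0.24, limma adjusted p = 0.0408), and leaving out 1 rat lost these calls in 5 and 6 of 10 fits. The median LFC of the list was -0.053, against -0.0074 over all genes tested.

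In aged DH, limma called 1 of 6 GABA supply and removal genes higher, and 3 of 11 glutamate supply and removal genes higher and 1 lower, against 4.05% higher and 3.25% lower of all genes. Slc38a2, a transporter gene for glutamine and other small amino acids, rose from 4045 ± 259 to 4916 ± 439 normalized counts (SD, n = 5; LFC of 0.28, limma adjusted p = 0.0129). Glul rose here too, from 29170 ± 3405 to 36710 ± 1966 without overlap (LFC of 0.34, limma adjusted p = 0.00769). Of 13 GABAergic neuron genes, Calb2 (LFC of 0.41, limma adjusted p = 0.0137) and Pvalb, which encodes parvalbumin (LFC of 0.37, limma adjusted p = 0.0248), were called higher and 0 lower, the Pvalb call being lost in 5 of the 10 fits that left out 1 rat. The LFC was positive for 4 genes of that list and negative for 9, with a median of -0.048 against -0.0030 over all genes tested. Slc6a9 rose from 5446 ± 232 to 5984 ± 114 (LFC of 0.14, limma adjusted p = 0.0263), a call lost in 6 such fits. Glul and Calb2 were called in both ages, and no gene of these lists was called in the test of the difference between the ages. Over the 20 rats, the deviations of Calb2 had an r of 0.017, 0.034 and -0.017 with Gad1, Gad2 and Slc32a1. Those of Pvalb had an r of 0.288, 0.138 and 0.188.

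**Figure D5:**
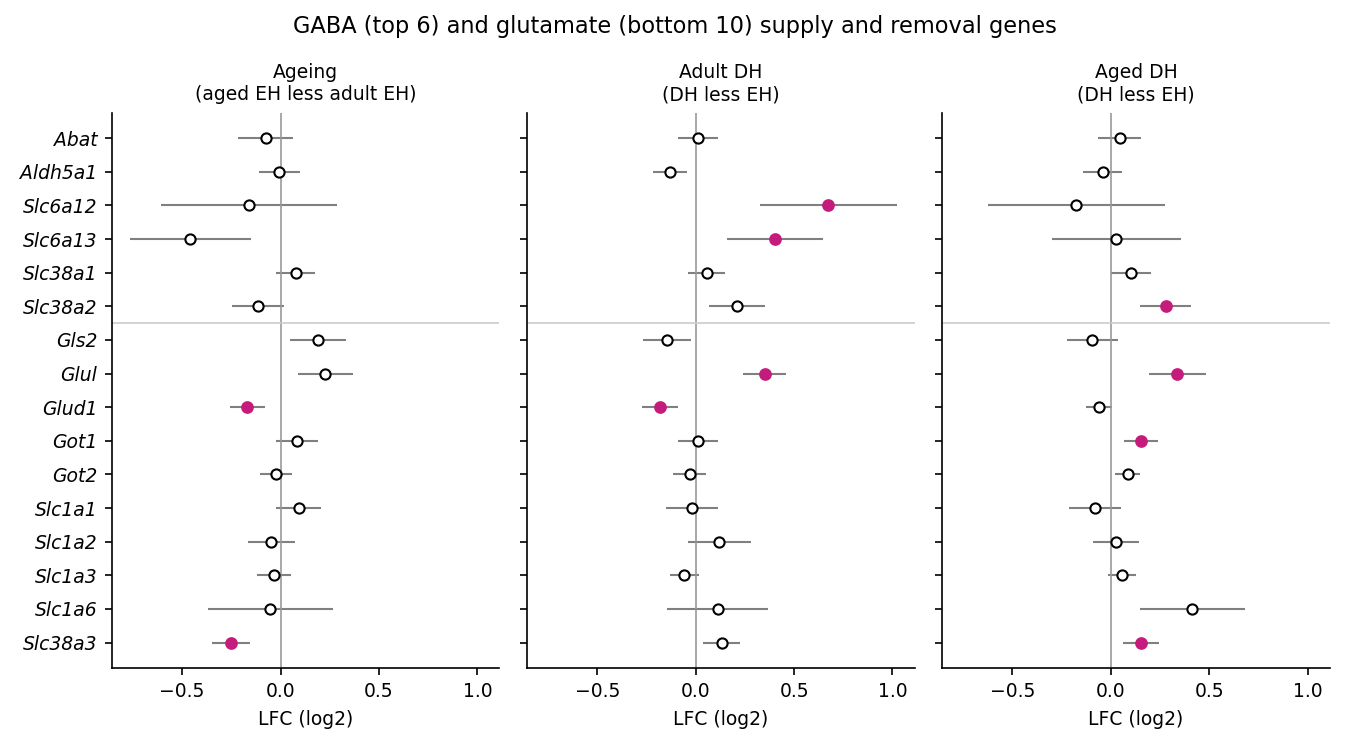
LFC (log2 scale) with 95% confidence interval from limma for 6 genes of GABA supply and removal and 10 of glutamate supply and removal, 5 against 5 rats in each panel. Filled points passed the adjusted threshold and open points did not. Slc17a7 of the second list is left out of the plot for its larger scale. Glul is filled in both DH panels (LFC of 0.35 and 0.34).

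The gene of VGLUT1, Slc17a7, stands on the glutamate list and contrasts with Slc17a6 and Slc17a8. VGLUT1 is the vesicular glutamate transporter of cortical, hippocampal and amygdalar neurons. In aged EH rats Slc17a7 (ENSRNOG00000020650) had 3261, 2035, 1916, 1609 and 1109 normalized counts, and in aged DH rats 1064, 324, 351, 389 and 614. Every DH rat was below every EH rat, with an LFC of -1.92 (95% CI -2.58 to -1.26; limma adjusted p = 0.00224). The adult rats gave an LFC with DH of 0.23 (95% CI -0.87 to 1.32; limma adjusted p = 0.826) and with ageing 0.82 (95% CI -0.17 to 1.81; limma adjusted p = 0.354). The difference between the ages was -2.15 (95% CI -3.53 to -0.77; limma adjusted p = 0.290) and did not pass.

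Slc17a7 also varied far more between rats than the 6 genes, with a residual SD of 0.64 on the log2 scale in aged DH, above that of 98.2% of genes, where Slc17a6 had 0.19. Some other genes of cortical glutamatergic neurons were also lower in aged DH. Of 6 such genes, Slc17a7 included, the LFC there was negative for 5 and positive for 1, at 0.243. Limma called 3 lower and 0 higher, against 3.25% and 4.05% of all genes. The summed normalized counts of the 6 were 864 to 1620 in DH and 1676 to 4062 in EH. In adult DH the LFC was positive for 3 and negative for 3, and 0 were called. Neurod6 had 14.6 ± 7.0 in DH and 88.0 ± 42.5 in EH, and Neurod2 19.7 ± 13.1 and 68.7 ± 29.2 (SD, n = 5). The part of such neurons in the Slc17a7 values was not tested.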

How the data were processed

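The data were 3 tables deposited by the authors, 1 per comparison, for 20 poly(A) libraries of rat SON. The authors used STAR to align stranded paired-end reads to Rn6, featureCounts for gene counts and DESeq2 size factors for scaling, so the deposited values are a normalized signal and not raw counts. Adult rats of the DH table gave whole reads for 100% of values (tolerance of 0.1 read); elsewhere reads were not recovered. The study's methods give a minimum number of paired-end reads for every sample, but the counted reads of each aged library are unknown.

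Log2(normalized count + 1) was tested with limma 3.58.1 (R 4.3.3), trended empirical Bayes, two-sided, for genes with a mean of at least 10, each comparison within its own table and the difference between ages over 4 groups. Rats are separate animals. edgeR 4.0.16 and DESeq2 1.42.0 were run on the recovered reads. The code was tested on simulated data. Correlations used scipy 1.17.1 and numpy permutations within groups, which were added after the data were seen. Alternatives were a pseudocount of 10, no filter, equal totals, a replicate block and leaving out each rat. Leaving out aged EH replicate 6, or 1 adult EH rat, from the spread within its group was added after the data were seen.

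Members and lists were chosen with earlier results of these data known. Named were all 6 genes, Slc17a7, at most 6 called listed genes per comparison by smallest p, and the 3 nearest genes by r. Sox9, Neurod2, Neurod6, Avp, Dcn, Drd2, Syt1, Npy and Oxt were named after their values were seen. So were Dlx1, Dlx5, Scg2, Nucb2, Igf2, Tbr1, Aldh5a1 and Slc1a3. Symbols were matched for 91 of 93 listed genes. A further 3 genes are not reported here and were left out of the lists, the plots and the search for like genes. The authors' fold changes and p-values in the tables were not used. Figures were drawn with matplotlib 3.10.9.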

Additional observations from a re-analysis of the deposited data

Results flagged for a closer look

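Among 18 genes in 108 groups of 5 rats, 5 groups held a rat whose gap to the next rat was more than 0.710 of the group's range (Dixon's criterion), and chance gives about 1 in 20. An EH rat in 2 tables counts in both. Gad1 was high in aged EH replicate 6, with 11836 normalized counts beside adult EH rats and 11761 beside aged DH rats. Slc17a7 was low in adult DH replicate 2, with 432, where the other DH rats had at least 1384. Calb2 was high in aged DH replicate 3, with 5967, and Slc38a2 was low in the same rat, with 4150. Without that rat Calb2 and Slc38a2 were still called by limma.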

How the results depend on the processing

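In every alternative run, 0 of the 6 genes passed the adjusted threshold, except that Slc32a1 was called in adult DH without DH replicate 1, so that the number called there ranged from 0 to 1 over the fits that left out 1 rat. Leaving out 1 rat moved the LFC of Gad1 between -0.014 and 0.12 with ageing and between -0.031 and 0.11 in aged DH, that of Gad2 between -0.092 and 0.050 and between -0.10 and 0.038, and that of Slc32a1 between -0.031 and 0.081 and between -0.059 and 0.063. Slc17a6 with ageing moved between -0.10 and 0.030, and Slc17a7 in adult DH between -0.21 and 0.59. In the difference between the ages, Gad2 moved between -0.027 and 0.11, Slc17a6 between -0.032 and 0.099 and Slc17a8 between -0.12 and 0.068. These changes of sign lie in LFCs whose intervals held 0. Other LFCs that kept their sign moved widely, such as Slc17a7 with ageing (0.38 to 1.13), Slc17a8 (-0.21 to -0.017 with ageing, -0.22 to -0.025 in adult DH and -0.21 to -0.067 in aged DH), Gad1 in adult DH (-0.15 to -0.025), Slc6a11 in adult DH (-0.068 to -0.0084) and Slc17a6 in aged DH (0.041 to 0.17).

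Over all genes, leaving out 1 rat gave 594 to 906 calls with ageing (lowest without adult EH replicate 5, and 599 without aged EH replicate 4), 678 to 1186 in aged DH (lowest without aged DH replicate 5, and 679 without aged EH replicate 5) and 0 to 5 in the difference (5 without aged EH replicate 6, 1 without aged EH replicate 4, aged DH replicate 3, adult EH replicate 5 or adult DH replicate 1). The numbers in the labels name different rats, and rats with the same number did not deviate together (r from -0.08 to 0.16). With the replicate block there were 824 calls with ageing, 987 in adult DH, 653 in aged DH and 1 in the difference, and the LFC changed sign for Slc17a7 in adult DH (-0.086) and, in the difference, for Gad2 (-9.7e-04) and Slc17a8 (0.013). Scaling to equal totals moved the share of calls that were higher from 45.0% to 28.8% with ageing, from 60.6% to 43.4% in adult DH and from 55.5% to 47.3% in aged DH. The causes were not tested. Ratios with a pseudocount of 10 moved by less than their SD.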
